A study of Homo sapiens with 29 samples.

Results

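The comparison described here set WM239A melanoma cells after 7 days in LGX818 against the same cells after 20 hours in it, so that both groups were on drug. The members were 6 of the 29 sequenced libraries of the series, chosen by their sample labels and not by any measured value: 3 libraries at 7 days and 3 at 20 hours. WM239A is a human metastatic melanoma line, and all 6 libraries came from a derivative that overexpresses BRAF-V600E. LGX818 (encorafenib) is an inhibitor of the BRAF kinase and was used at 500 nM at both times. The same BRAF-V600E cells without drug (3 libraries) are given as a baseline level beside the comparison. The other 20 libraries, from vector cells and from later continuous or intermittent treatment, entered the statistical fit, and the continuous ones give later levels. The labels do not say whether the overexpressing line was a pool or a single clone, nor whether replicates were grown in separate cultures, so p-values measure only how these libraries vary, which may be technical. No untreated cells were sampled late, so time on drug and time in culture cannot be told apart.

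BRAF-V600E is a kinase that signals without an upstream receptor and keeps the MEK and ERK kinases active. ERK activity drives proliferation genes such as CCND1 and also its own inhibitors, the dual-specificity phosphatases and the Sprouty proteins, whose transcripts serve as a readout of the pathway. Melanocyte identity rests on MITF, a transcription factor that acts with SOX10 and PAX3 and switches on the pigment enzymes and the mitochondrial coactivator PPARGC1A. Melanoma cells with little MITF and much of the receptors AXL or NGFR are a well-known state in BRAF-inhibited cells, with abundant matrix, AP-1 and YAP/TEAD target transcripts.

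Polyadenylated RNA was sequenced and counted per gene. The libraries held 26.9, 35.8 and 31.4 mega-counts at 7 days and 22.9, 23.4 and 25.2 mega-counts at 20 hours. Mitochondrially encoded genes took 10.4%, 9.43% and 11.1% of the counts at 7 days, against 17.6%, 20.7% and 20.1% at 20 hours. Neither measure overlapped between the groups (exact two-sided permutation test, p = 0.1 each, the smallest that 3 against 3 libraries can give). FN1, the gene of fibronectin, alone took 5.07% of the counts at 7 days and 0.916% at 20 hours. Levels below are in CPM, counts scaled to a common library size, after TMM scaling, with the 3 libraries of a group in replicate order. Changes are log2 changes, 7 days minus 20 hours, with their standard error, and adjusted p-values are from edgeR's quasi-likelihood test over all 20494 tested genes, with a gene called when its value was under 0.05.

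BRAF itself, which the line overexpresses, had 803, 757 and 805 CPM at 7 days, 679, 726 and 696 CPM at 20 hours and a mean of 895 CPM in untreated BRAF-V600E cells, against 40.2 CPM in untreated vector cells. Its change on drug missed the threshold (log2 change 0.17 ± 0.08, adjusted p = 0.057), although the 2 groups did not overlap. It passed with DESeq2, with RLE factors, without the count filter, without mitochondrial genes and with the 6 libraries alone, at log2 changes of 0.18 to 0.23.

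Most of the measured transcriptome differed between 20 hours and 7 days of the same dose. Of the tested genes, 5856 (28.6%) rose and 5974 (29.1%) fell, with a median log2 change over all tested genes of -0.02. Fitted changes of at least 2-fold were found in 2788 genes that rose and 2792 that fell, and of at least 16-fold in 515 that rose and 269 that fell. Among the called genes, 216 had no count at 20 hours and 72 had none at 7 days, so that their fitted change is not a measured size. With each of these at its lower bound, from a floor of 3 counts over the group, changes of at least 16-fold numbered 341 among genes that rose and 218 among those that fell, and changes of at least 2-fold 2765 and 2791.

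**Figure D1:**
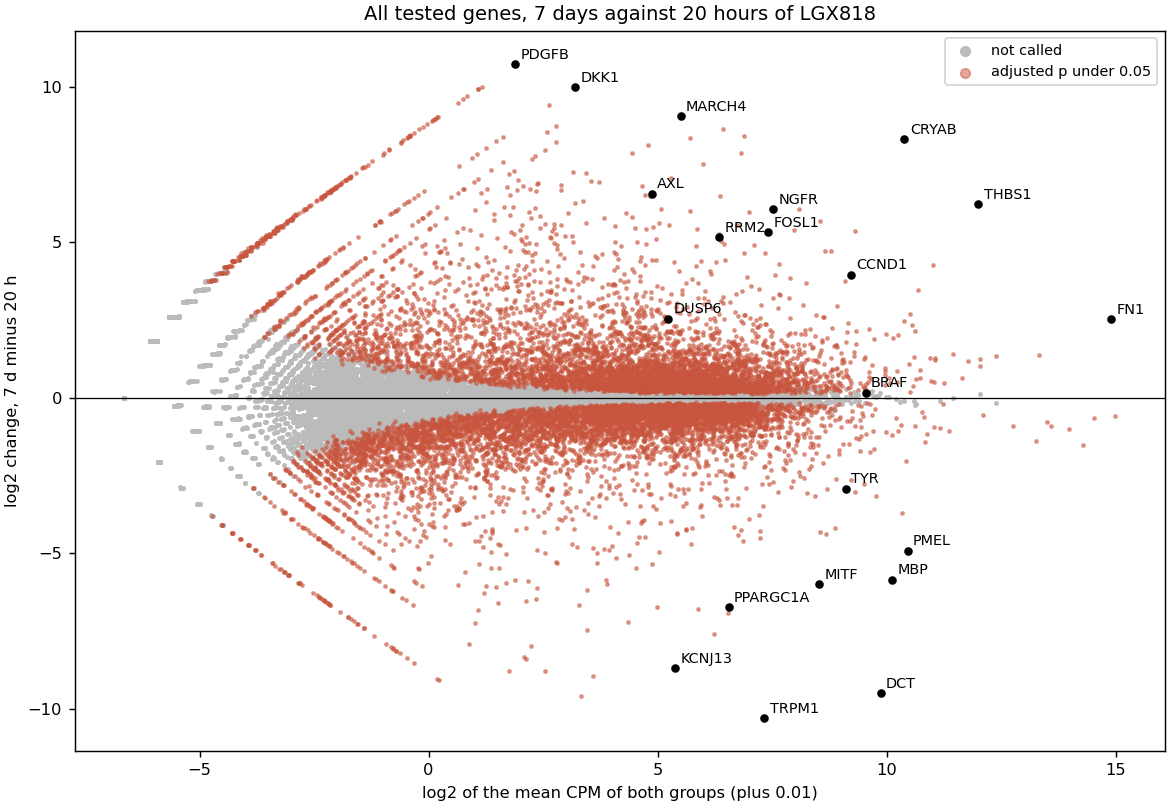
Log2 change at 7 days against 20 hours of LGX818 (y axis) for all tested genes, by the log2 of the mean CPM of both groups (x axis); red points passed an adjusted p under 0.05, grey points did not, and named genes are black. Points on the straight outer edges are genes with no or nearly no counts in 1 group, whose fitted change is not a measured size. TRPM1 and DCT lie lowest among the named genes, FN1 lies far to the right, and BRAF lies near 0.

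The genes with the largest falls included TRPM1 and DCT, both of the pigment cell. TRPM1, a melanocyte cation channel gene that carries a microRNA in an intron, had 0.116, 0.289 and 0.329 CPM at 7 days, against 315, 323 and 325 CPM at 20 hours (log2 change -10.29 ± 0.17, adjusted p = 1.17e-28). DCT, the dopachrome tautomerase of melanin synthesis, had 2.85, 2.74 and 2.14 CPM at 7 days, against 1769, 1938 and 1883 CPM at 20 hours (-9.50 ± 0.21, adjusted p = 4.42e-26). Both genes were thus abundant in every library at 20 hours and close to absent in every library at 7 days. KCNJ13, an inward-rectifier potassium channel gene, had 0.0771, 0.202 and 0.296 CPM at 7 days and 83.4, 84.8 and 80.0 CPM at 20 hours (-8.68 ± 0.28), but averaged 0.105 CPM in untreated cells. Its high level was therefore seen at 20 hours and at neither other time.

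GALNT3, which starts mucin-type O-glycosylation, changed by -7.59 ± 0.18 and PLA1A, a phospholipase gene, by -6.92 ± 0.17. NAT16 changed by -7.20 ± 0.22. Of the same size class were 4 genes with 2 counts in all at 7 days. SULT1C2, a sulfotransferase, had 1453 counts at 20 hours and was 913-fold lower at 7 days (95% counting interval 252 to 7544). BANCR, a long non-coding RNA, was 523-fold lower (144 to 4323), DENND2D 397-fold lower (110 to 3286) and SV2B 383-fold lower (106 to 3166). Such intervals, and the floor of 3 counts used below, cover counting error only.

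Genes of secreted proteins, a protease inhibitor and membrane receptors were among the largest rises. SERPINB2, a serine protease inhibitor, had 235, 232 and 243 CPM at 7 days and 0.586, 0.775 and 0.712 CPM at 20 hours (8.41 ± 0.15, adjusted p = 2.06e-28). Its lowest 7 day library lay far above its highest 20 hour library. MARCH4, a ubiquitin ligase gene, rose by 9.06 ± 0.14, and LRRC15, a leucine-rich membrane protein gene known from activated fibroblasts, by 8.34 ± 0.22.

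PDGFB, a growth factor chain, had 669 counts at 7 days and none at 20 hours, which makes it at least 177.5-fold higher against a floor of 3 counts over the group. DKK1, a secreted Wnt inhibitor, had 1674 counts at 7 days and 1 at 20 hours, a ratio of 1332 (counting interval 239 to 52660). HSPB3, a small heat shock protein, was 892-fold higher (160 to 35270). NPPB, a natriuretic peptide precursor, was 499-fold higher (138 to 4122), APLNR, the apelin receptor, 430-fold higher (119 to 3557) and SHANK2, a synaptic scaffold, 440-fold higher (78.7 to 17420). In all, 216 genes that rose had no count at 20 hours and 72 genes that fell had none at 7 days.

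The pigment and melanosome list fell nearly as a whole. Of its 22 tested members, 19 fell, 1 rose and 2 were not called, with a median log2 change of -2.90. Counts for this and later lists are to be read against 28.6% higher and 29.1% lower over all tested genes. Lists can share members, so their counts are not separate evidence. Over protein-coding genes alone, these shares were 34.5% and 31.0%. PMEL, which forms the fibrils of the melanosome, had 90.1, 96.8 and 83.0 CPM at 7 days, against 2933, 2630 and 2588 CPM at 20 hours (-4.92 ± 0.15). MLANA, a melanosome protein, had 38.5, 38.5 and 37.5 CPM at 7 days, against 793, 826 and 729 CPM at 20 hours (-4.36 ± 0.17). TYR, the rate-limiting enzyme of melanin synthesis, had 132, 135 and 123 CPM at 7 days, against 998, 994 and 944 CPM at 20 hours (-2.91 ± 0.11, adjusted p = 2.11e-20). The 7 day libraries of these 3 genes lay below the 20 hour libraries and also below untreated cells, which averaged 647 CPM for PMEL, 380 CPM for MLANA and 344 CPM for TYR.

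RAB38, a small GTPase that sorts cargo to melanosomes, changed by -4.61 ± 0.10. The smallest of the falls among the main enzymes was in TYRP1 (-0.76 ± 0.19), which had 10.2, 9.58 and 9.74 CPM at 7 days and 17.99, 14.6 and 17.3 CPM at 20 hours. Its level in untreated cells was lower than both, at 0.169 CPM. The 1 member that rose, GPR143, rested on 11 counts at 7 days and 1 at 20 hours and lost its call in 5 of 12 alternative fits, among them those without 7 days replicate 2 and without 20 hours replicate 1 or 2. OCA2 was not called (fitted log2 change 3.49, adjusted p = 0.082), but was called higher without 7 days replicate 2. In bulk RNA, fewer cells of a type and less RNA per cell cannot be told apart, here and in every group below.

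The promoters of 2 of these genes are shown because they hold the E-box form that MITF is known to bind, CATGTG or its reverse complement CACATG, within the 250 bases before the RefSeq start (GRCh38.p14; capitals mark the motif). They are the 2 list members with the largest called change whose window holds it. TRPM1 is on the minus strand at chr15:31161161-31161410, with the motif 8 bases before the start, and BIRC7, an inhibitor of apoptosis that is a known MITF target, on the plus strand at chr20:63235655-63235904, with the motif 27 bases before the start.
TRPM1: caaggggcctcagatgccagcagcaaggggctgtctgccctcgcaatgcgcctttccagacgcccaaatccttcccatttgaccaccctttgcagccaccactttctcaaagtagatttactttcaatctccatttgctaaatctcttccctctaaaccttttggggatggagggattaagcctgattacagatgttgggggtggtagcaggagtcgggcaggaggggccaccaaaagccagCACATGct
BIRC7: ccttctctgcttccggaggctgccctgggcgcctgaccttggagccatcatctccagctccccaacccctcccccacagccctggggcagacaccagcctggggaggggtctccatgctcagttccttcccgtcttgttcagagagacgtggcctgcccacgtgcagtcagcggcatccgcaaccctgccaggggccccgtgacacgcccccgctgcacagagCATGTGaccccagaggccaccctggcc
Of the 20 pigment list members with a RefSeq promoter in the table, 10 (50%) held CATGTG on either strand in this window, against 9.54% of 27305 promoters of all genes. This match describes the letters only, and binding was not measured. BIRC7 had 4.78, 5.48 and 4.34 CPM at 7 days, against 62.8, 47.4 and 54.2 CPM at 20 hours (-3.49 ± 0.17, adjusted p = 2.31e-17).

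MITF itself (chr3:69739435-69968337, plus strand, GRCh38, GENCODE 29) was the lineage factor that fell most. It had 11.6, 11.5 and 11.1 CPM at 7 days, against 682, 780 and 707 CPM at 20 hours, with a mean of 349 CPM in untreated cells (-5.99 ± 0.14, adjusted p = 4.96e-25). At 20 hours MITF was thus above its untreated level in every library, and at 7 days far below it in every library. PAX3, which activates MITF, had 65.2, 65.6 and 69.8 CPM at 7 days and 272, 271 and 286 CPM at 20 hours (-2.05 ± 0.07). SOX10, the neural crest factor upstream of MITF, had 405, 438 and 408 CPM at 7 days, against 903, 907 and 1084 CPM at 20 hours (-1.21 ± 0.10). Untreated cells averaged 478 CPM of SOX10 and 38.9 CPM of PAX3, so that at 7 days SOX10 lay below and PAX3 above its untreated mean.

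Over the 13 lineage factors, 8 fell and 5 rose, with a median of -0.71. Among those that rose were other members of the MITF family. TFEC had 7.25, 7.10 and 9.12 CPM at 7 days, against 0.293, 0.172 and 0.198 CPM at 20 hours (5.12 ± 0.29, adjusted p = 6.54e-16). TFE3 rose by 1.34 ± 0.06, whereas TFEB, the family member known for lysosome genes, fell by 1.68 ± 0.26 on the log2 scale from a low level. DLX5, a homeobox factor, rose by 2.13 ± 0.11. The MITF family thus did not move as 1 group.

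**Figure D2:**
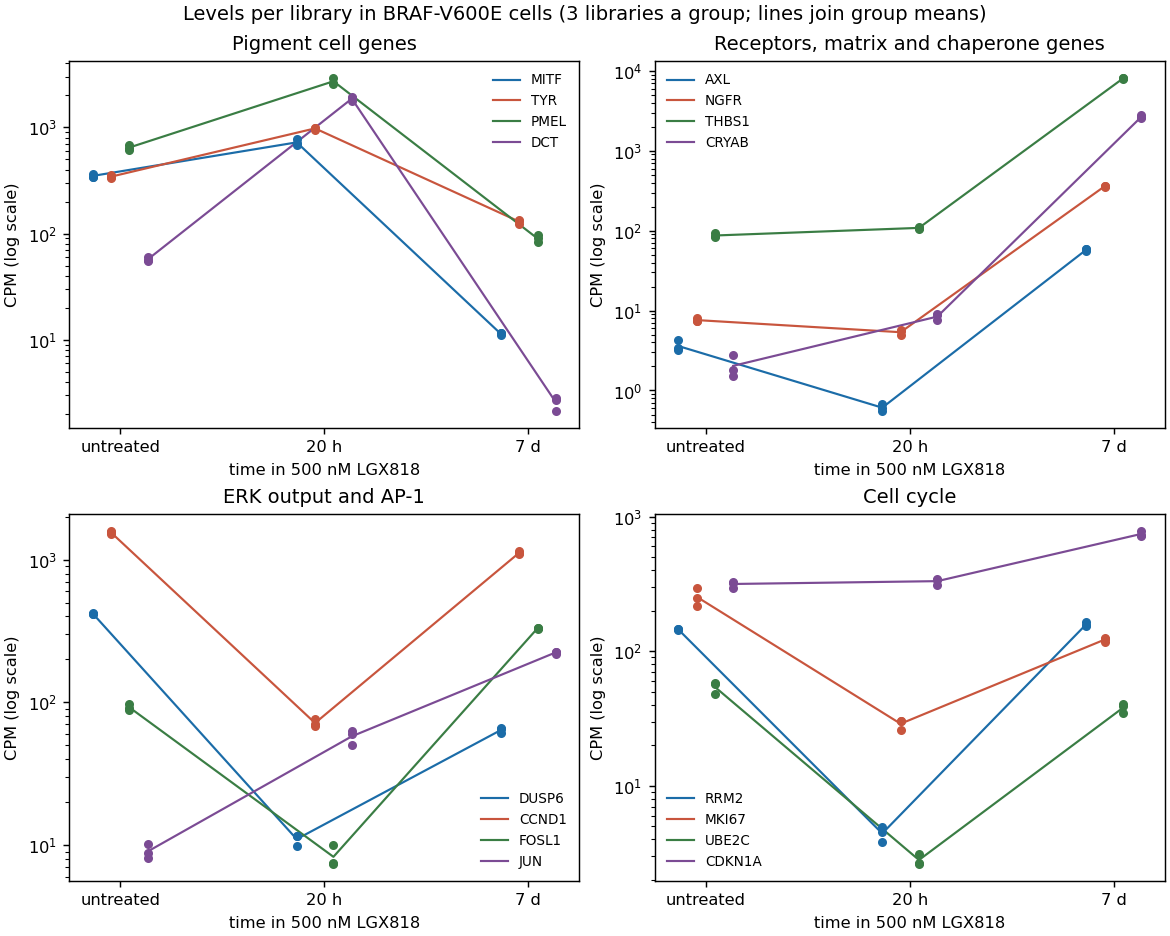
CPM on a log scale (y axis) in untreated BRAF-V600E cells and after 20 hours and 7 days of LGX818 (x axis), 1 point a library and lines through the means of 3 libraries, for 4 genes in each of 4 groups. MITF, TYR, PMEL and DCT are highest at 20 hours and lowest at 7 days, while DUSP6, CCND1, RRM2, MKI67 and UBE2C dip at 20 hours and lie higher at 7 days.

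PPARGC1A, the coactivator of mitochondrial biogenesis that MITF is known to drive, fell as well. It had 1.97, 1.53 and 1.78 CPM at 7 days, against 174, 192 and 191 CPM at 20 hours and a mean of 63.3 CPM in untreated cells (-6.73 ± 0.21, adjusted p = 3.19e-22). ESRRA, the nuclear receptor it works with, had 17.7, 19.5 and 18.1 CPM at 7 days and 68.9, 55.3 and 61.2 CPM at 20 hours (-1.74 ± 0.11). In the list of nuclear-encoded respiratory chain genes with PPARGC1A and its partners, 25 of 30 tested members fell, none rose and 5 were not called. The fall of the list was shallow, with a median of -0.58: ATP5F1B, the beta subunit of ATP synthase, changed by -0.94 ± 0.09 and NDUFS1, a complex I subunit, by -0.92 ± 0.08.

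Of the 13 protein genes encoded in mitochondrial DNA, 11 fell and none rose, with a median of -0.90. MT-CYB, cytochrome b of complex III, had 5387, 4956 and 6020 CPM at 7 days and 12754, 15237 and 14534 CPM at 20 hours (-1.38 ± 0.09). MT-ND1 and MT-ND3 were not called. The summed CPM of the 13 genes was 86484 to 102960 at 7 days and 139620 to 174070 at 20 hours. The share of mitochondrial counts given above rests on the same genes, the 2 mitochondrial rRNAs, which also fell, and the mitochondrial tRNAs. Of 11 tested mitochondrial tRNAs, 4 fell and 1 rose.

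ERK output genes rose during these days on drug. Of 24 tested members of the list, 19 rose, 3 fell and 2 were not called, with a median log2 change of 2.30, against -0.02 over all genes. SPRY4, an inhibitor of the pathway, had 113, 112 and 105 CPM at 7 days, against 9.08, 7.75 and 8.86 CPM at 20 hours (3.68 ± 0.10, adjusted p = 2.51e-23). DUSP6, the phosphatase that dephosphorylates ERK, had 60.9, 64.9 and 66.1 CPM at 7 days, against 11.5, 11.5 and 9.92 CPM at 20 hours (2.54 ± 0.07, adjusted p = 4.40e-23). Untreated cells averaged 1348 CPM of SPRY4 and 421 CPM of DUSP6, so that the 7 day libraries stayed far below the baseline for both.

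ETV4, an ETS factor, rose by 2.35 ± 0.12 to a mean of 11.3 CPM at 7 days, against 2.21 CPM at 20 hours and 231 CPM in untreated cells. EGR1, an immediate early factor, had 9.10, 8.74 and 9.84 CPM at 7 days and 1.21, 1.59 and 1.70 CPM at 20 hours (2.61 ± 0.18), beside 420 CPM in untreated cells. CCND1, the cyclin that starts the G1 phase, came closer to its baseline: it had 1144, 1102 and 1107 CPM at 7 days and 70.5, 68.0 and 76.5 CPM at 20 hours (3.96 ± 0.07, adjusted p = 1.43e-28), beside 1553 CPM. DUSP4, a nuclear phosphatase of the same family, went the other way, with 178, 182 and 160 CPM at 7 days and 419, 394 and 436 CPM at 20 hours (-1.26 ± 0.07). Members of 1 feedback family thus changed in opposite directions between the same libraries. The other 2 falls, SPRY1 and SPRED3, were small and lost their call in 6 and 8 of 12 alternative fits, so that DUSP4 alone was left without the count filter, without 7 days replicate 1 or without 20 hours replicate 1. For the list, the median change was -3.59 at 20 hours against untreated cells and -1.37 at 7 days against them, beside 0.06 and 0.00 over all genes. These comparisons share libraries with the main comparison and are given as levels, not as separate evidence.

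The AP-1 factors and immediate early genes rose almost without exception: 19 of 20 tested members rose and NR4A3 fell, with a median of 2.13. FOSL1, the AP-1 subunit FRA1 (chr11:65892049-65900573, minus strand), had 327, 333 and 332 CPM at 7 days, against 7.36, 7.496 and 9.96 CPM at 20 hours (5.32 ± 0.10, adjusted p = 2.71e-27). Untreated cells averaged 92.3 CPM, so FOSL1 lay below that at 20 hours and above it at 7 days. JUN had 227, 227 and 219 CPM at 7 days, against 59.9, 50.1 and 63.4 CPM at 20 hours (1.96 ± 0.10), and 9.02 CPM in untreated cells. JUN was therefore already above its baseline at 20 hours, unlike FOSL1. FOSL2 rose by 3.20 ± 0.11, ATF3, a stress-induced AP-1 partner, by 3.54 ± 0.10, and KLF4, a zinc-finger factor, by 5.51 ± 0.16. FOS rose by only 1.09 ± 0.18, with 5.09, 5.42 and 5.63 CPM at 7 days, 2.89, 1.72 and 2.97 CPM at 20 hours and 49.2 CPM in untreated cells.

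**Figure D3:**
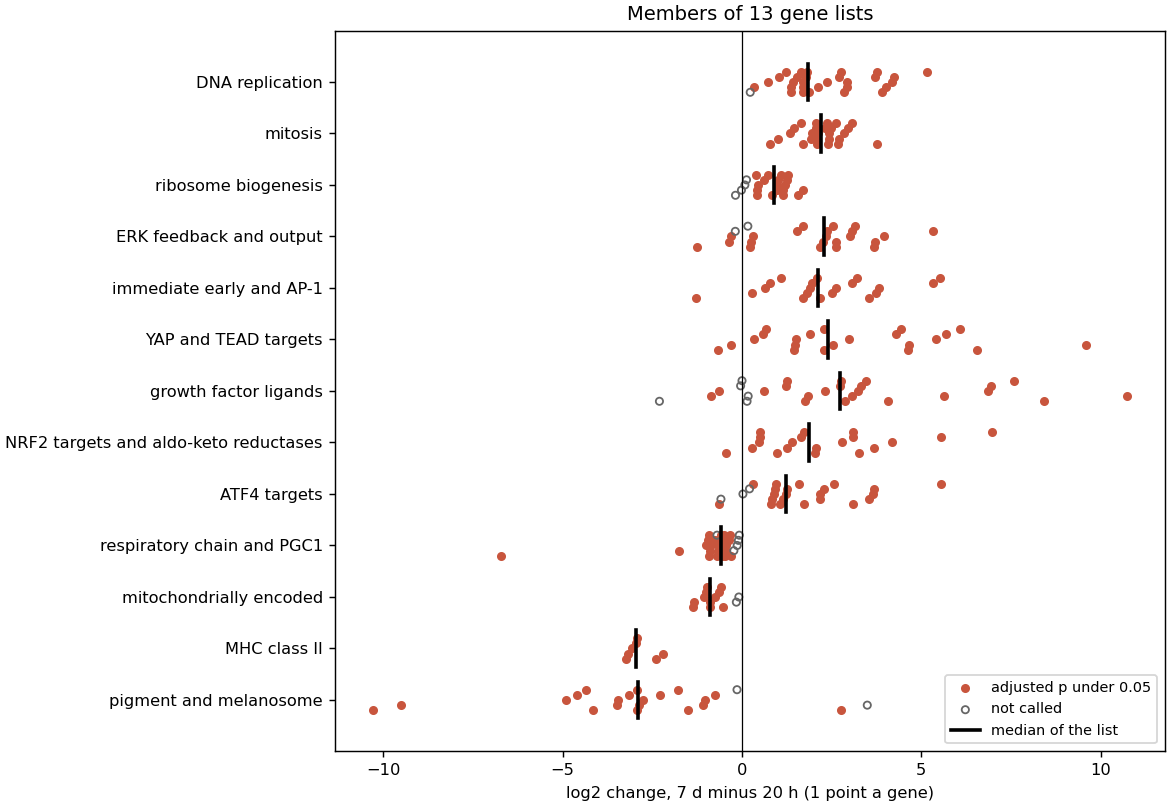
Log2 change at 7 days against 20 hours (x axis) for each tested member of 13 gene lists (y axis); filled points passed an adjusted p under 0.05, open points did not, and the bar is the median of the list. ANKRD1, 3 growth factor ligands (PDGFB and ANGPTL4 among them) and 1 member of the pigment list had no counts at 20 hours. They are drawn at their fitted change, which is not a measured size. All members of the mitosis list lie right of 0 and all members of the MHC class II list lie left of it.

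Cell cycle genes rose together. Of 30 DNA replication genes, 29 rose and CCNE1 was not called, with a median of 1.83, and all 26 tested mitosis genes rose, with a median of 2.21. RRM2, the ribonucleotide reductase subunit of S phase, had 154, 156 and 166 CPM at 7 days, against 4.56, 4.91 and 3.84 CPM at 20 hours (5.16 ± 0.09, adjusted p = 1.18e-28). CDC6, which loads the replicative helicase, rose by 4.20 ± 0.10 and MCM2, a helicase subunit, by 1.02 ± 0.09. UBE2C, the ubiquitin-conjugating enzyme of the anaphase-promoting complex, had 34.8, 40.4 and 38.9 CPM at 7 days and 3.14, 2.63 and 2.69 CPM at 20 hours (3.75 ± 0.13, adjusted p = 1.08e-20). MKI67, the proliferation marker, had 124, 117 and 126 CPM at 7 days, against 25.9, 30.4 and 30.4 CPM at 20 hours (2.08 ± 0.22, adjusted p = 1.44e-09).

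Untreated cells averaged 145 CPM of RRM2, 54.3 CPM of UBE2C and 254 CPM of MKI67, so RRM2 alone of the 3 was not below its untreated mean at 7 days. Against untreated cells, the median of the replication list was -2.75 at 20 hours and -0.80 at 7 days, and that of the mitosis list -2.92 and -0.64. Of 22 ribosome biogenesis genes, 18 rose, none fell (1, POLR1A, with the 6 libraries alone) and 4 were not called, with a median of 0.90. RRP12, a factor of ribosomal subunit export, rose by 1.70 ± 0.07. MYC, an activator of such genes, had 72.5, 76.8 and 76.8 CPM at 7 days and 16.6, 16.3 and 16.8 CPM at 20 hours (2.18 ± 0.07).

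Inhibitors of the cell cycle did not fall in turn as a group. Among 12 tested CDK inhibitors and quiescence genes, 6 rose and 5 fell, with a median of 0.04. CDKN1A, the inhibitor p21, had 718, 783 and 728 CPM at 7 days, against 338, 310 and 345 CPM at 20 hours (1.17 ± 0.07, adjusted p = 6.28e-15), and 316 CPM in untreated cells. CDKN1B, the inhibitor p27, fell, with 31.6, 30.7 and 33.5 CPM at 7 days and 47.2, 48.0 and 45.9 CPM at 20 hours (-0.56 ± 0.09). CCNG2, a cyclin of quiescent cells, changed by -1.49 ± 0.10. Of 19 p53 targets, 9 rose and 7 fell (median 0.20): GADD45A rose by 1.91 ± 0.11 and TP53INP1 changed by -1.75 ± 0.09.

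The BCL2 family was mixed as well, with 6 of 15 tested members higher (40%), 5 lower (33.3%) and a median of 0.06. Over all tested genes, 28.6% were higher and 29.1% lower. The BH3-only killers of the family split. BCL2L11 (BIM) had 20.1, 17.4 and 15.3 CPM at 7 days and 59.1, 50.6 and 57.5 CPM at 20 hours (-1.66 ± 0.10), beside 15.2 CPM in untreated cells. BMF changed by the same amount (-1.66 ± 0.08), with means of 58.6 CPM at 7 days, 185 CPM at 20 hours and 14.2 CPM in untreated cells. PMAIP1 (NOXA) went the other way, with 34.3, 28.4 and 34.3 CPM at 7 days, against 3.05, 4.14 and 3.005 CPM at 20 hours (3.25 ± 0.14, adjusted p = 7.87e-19), and 42.2 CPM in untreated cells. BCL2A1, a pro-survival member that MITF is known to activate, had 8.94, 10.01 and 11.2 CPM at 7 days and 75.1, 88.4 and 68.8 CPM at 20 hours (-2.94 ± 0.13).

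Receptors known from the low-MITF state rose steeply. AXL, a receptor tyrosine kinase (chr19:41219203-41261766, plus strand), had 56.3, 58.5 and 58.8 CPM at 7 days, against 0.669, 0.603 and 0.554 CPM at 20 hours (6.56 ± 0.15, adjusted p = 1.49e-25). Untreated cells averaged 3.61 CPM, above the 20 hour libraries and below the 7 day libraries. NGFR, the low-affinity neurotrophin receptor, had 360, 364 and 357 CPM at 7 days, against 5.52, 4.91 and 5.65 CPM at 20 hours (6.07 ± 0.09, adjusted p = 1.44e-29), and 7.61 CPM in untreated cells. EGFR had 114 counts in the 7 day libraries (1.62, 0.866 and 1.38 CPM) and none at 20 hours, at least 30.2-fold higher against the floor.

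Of 28 tested receptor tyrosine kinases, 17 rose, 6 fell and 5 were not called, with a median of 0.73. FGFR3 had 27.2, 31.9 and 24.8 CPM at 7 days and 1.59, 1.81 and 3.20 CPM at 20 hours (3.66 ± 0.20), FLT1, a VEGF receptor, rose by 4.43 ± 0.19, and EPHA2 by 3.02 ± 0.08. MET, the receptor of hepatocyte growth factor, fell, with 47.9, 47.5 and 49.1 CPM at 7 days against 175, 182 and 178 CPM at 20 hours (-1.89 ± 0.11). ERBB3, the neuregulin receptor, had 192, 195 and 191 CPM at 7 days and 297, 298 and 289 CPM at 20 hours (-0.61 ± 0.11).

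Ligand genes rose as well. Of 27 tested growth factor ligands, 20 rose, 2 fell and 5 were not called, with a median of 2.74. NRG1, the ligand of ERBB3, had 44.9, 41.3 and 41.3 CPM at 7 days, against 2.34, 2.37 and 2.89 CPM at 20 hours (4.06 ± 0.13, adjusted p = 9.24e-22). BDNF, a neurotrophin, had 63.4, 61.8 and 68.3 CPM at 7 days and 1.05, 1.42 and 1.42 CPM at 20 hours (5.63 ± 0.12). HBEGF, an EGFR ligand, had 49.9, 55.0 and 51.0 CPM at 7 days and 5.44, 5.38 and 5.85 CPM at 20 hours (3.22 ± 0.11). In all 3 the groups stood apart by several-fold, and untreated cells were below the 7 day level, with means of 0.436 CPM for NRG1, 2.98 CPM for BDNF and 11.8 CPM for HBEGF.

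VEGFC, a lymphatic growth factor, rose by 6.95 ± 0.27 and FGF5 by 6.87 ± 0.24. ANGPTL4 had 135 counts at 7 days and none at 20 hours, at least 35.8-fold higher. The falls were NRG2 (-0.87 ± 0.19) and PDGFD (-0.63 ± 0.12).

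**Figure D4:**
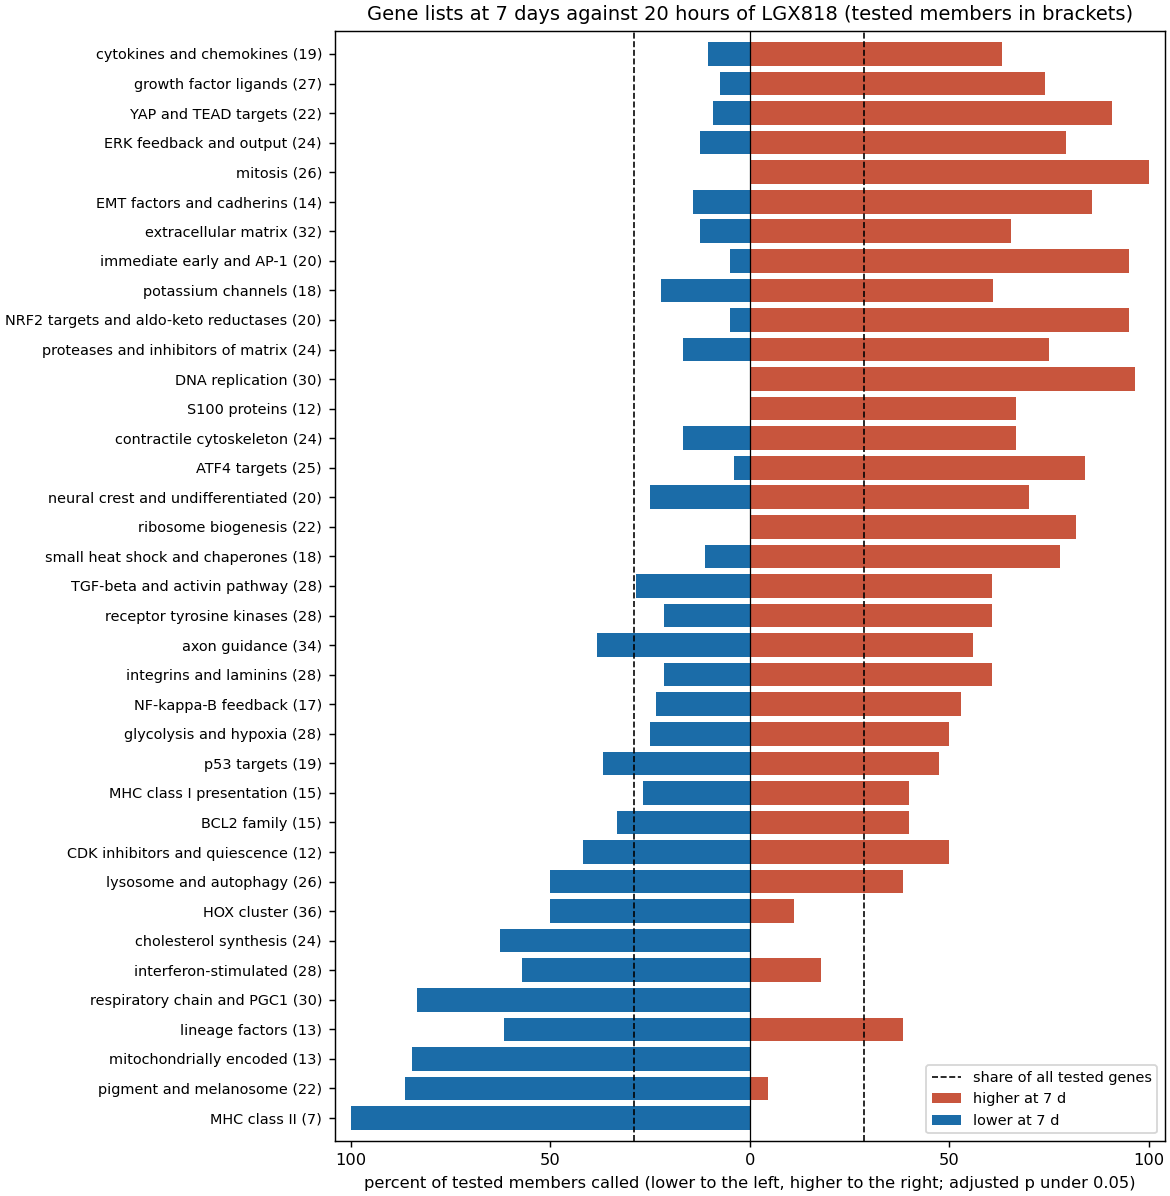
Percent of tested members called higher (red, to the right) and lower (blue, to the left) at 7 days against 20 hours for the 37 lists other than cell type markers, ordered by median change, with tested members in brackets; dashed lines mark the shares over all tested genes, 28.6% higher and 29.1% lower. Mitosis reaches 100% higher and MHC class II 100% lower, while lysosome, p53 and BCL2 family lists have calls on both sides.

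YAP and TEAD target genes rose, 20 of 22 tested members, with 2 falls (1 without 7 days replicate 3) and a median of 2.41. YAP is a coactivator held out of the nucleus in crowded or soft surroundings, and TEAD factors carry it to DNA. CCN1 (CYR61), a matricellular protein, had 536, 509 and 550 CPM at 7 days, against 7.70, 8.06 and 7.91 CPM at 20 hours (6.07 ± 0.09, adjusted p = 1.44e-29). CCN2 (CTGF), its relative, had 506, 495 and 479 CPM at 7 days, against 12.2, 11.9 and 10.6 CPM at 20 hours (5.41 ± 0.09, adjusted p = 1.55e-28). Untreated cells averaged 37.9 CPM of CCN1 and 54.4 CPM of CCN2, so both were below baseline at 20 hours and above it at 7 days. MYOF, a membrane repair protein, rose by 5.68 ± 0.14 and CCDC80, a matrix protein, by 4.66 ± 0.09. ANKRD1 had 305 counts at 7 days and none at 20 hours, at least 80.9-fold higher.

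The promoters of ANKRD1 and CCN2 are shown because they hold the TEAD motif GGAATG. Among members chosen from as for the pigment list, they have the largest called change of those that do so. Capitals mark GGAATG, and in ANKRD1 also 1 match to the AP-1 motif TGANTCA, in the 250 bases before the RefSeq start (GRCh38.p14). ANKRD1 is on the minus strand at chr10:90921088-90921337, with GGAATG at 220 and 128 bases and TGATTCA at 195 bases before the start. CCN2 is on the minus strand at chr6:131951373-131951622, with GGAATG at 169, 104 and 95 bases before the start.
ANKRD1: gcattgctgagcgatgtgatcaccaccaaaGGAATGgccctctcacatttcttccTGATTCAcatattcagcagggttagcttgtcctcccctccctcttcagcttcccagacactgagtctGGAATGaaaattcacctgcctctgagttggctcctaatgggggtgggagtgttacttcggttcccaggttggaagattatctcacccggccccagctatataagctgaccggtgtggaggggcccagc
CCN2: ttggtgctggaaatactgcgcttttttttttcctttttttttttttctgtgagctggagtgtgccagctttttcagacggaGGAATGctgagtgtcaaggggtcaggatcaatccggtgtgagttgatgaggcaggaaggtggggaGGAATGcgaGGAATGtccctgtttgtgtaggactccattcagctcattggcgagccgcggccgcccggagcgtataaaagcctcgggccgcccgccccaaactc
Of the 16 members with a promoter in the table, 6 (37.5%) held GGAATG on either strand, against 11.9% of all promoters, and 2 (12.5%) held TGANTCA, against 6.60%. As above, this describes letters and not binding.

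Transforming growth factor beta and activin genes were divided, with 17 of 28 higher, 8 lower and a median of 0.75. Those that rose included secreted antagonists and targets: FST, which binds activin, had 51.4, 54.7 and 50.02 CPM at 7 days and 0.627, 0.646 and 0.435 CPM at 20 hours (6.51 ± 0.21), and TGFBI, an adhesion protein, rose by 5.93 ± 0.21. SMAD7, the inhibitory SMAD, rose by 2.62 ± 0.09 and INHBA, the activin A chain, by 6.12 ± 0.37. TGFB1, the ligand itself, was not called, with 68.7, 68.3 and 65.6 CPM at 7 days and 63.4, 53.3 and 72.9 CPM at 20 hours. Among the Id proteins, inhibitors of basic helix-loop-helix factors, ID1 rose by 3.12 ± 0.17 and ID2 changed by -1.79 ± 0.10.

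Extracellular matrix genes took a larger part of the counts at 7 days. Of 32 tested members, 21 rose, 4 fell and 7 were not called (median 2.15), and their summed level was 72617 to 77107 CPM at 7 days, against 13075 to 13751 CPM at 20 hours. FN1 had 54356, 52577 and 50285 CPM at 7 days and 9005, 8764 and 9347 CPM at 20 hours (2.54 ± 0.13). THBS1, thrombospondin 1, had 8226, 7884 and 8108 CPM at 7 days, against 111, 106 and 108 CPM at 20 hours (6.22 ± 0.14, adjusted p = 1.64e-25). COL1A1, the main chain of type I collagen, had 227, 226 and 218 CPM at 7 days and 1.55, 0.474 and 0.830 CPM at 20 hours (7.87 ± 0.20). Untreated cells averaged 7671 CPM of FN1, 87.1 CPM of THBS1 and 0.778 CPM of COL1A1, so that for all 3 the 7 day libraries stood apart from both other groups. POSTN, periostin, fell, with 7.05, 6.41 and 6.71 CPM at 7 days against 49.9, 50.7 and 45.6 CPM at 20 hours (-2.86 ± 0.15).

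The matrix genes include type I collagen, a fibroblast marker. Of 10 fibroblast markers, 6 rose, 2 fell and 2 were not called, and their summed level was 310 to 317 CPM at 7 days and 71.4 to 77.1 CPM at 20 hours. Beside COL1A1, those that rose were COL1A2 (1617 counts over the 3 libraries at 7 days and 8 at 20 hours), COL3A1 (944 and 42), PDGFRA (375 and 88), PDGFRB (310 and 13) and TWIST2 (31 and 3). FAP fell (4851 counts at 7 days and 5009 at 20 hours, a log2 change of -0.37), as did DCN (1 and 14), while LUM (123 and 69) and THY1 (0 and 2) were not called. The part of fibroblast markers in the rise of the matrix genes was not tested. Of 6 melanocyte and melanoma markers, 5 fell, among them SOX10 to a mean of 417 CPM at 7 days, against 964 CPM at 20 hours, and MITF to 11.4 CPM, against 723 CPM. The sixth, S100B, had 156, 165 and 156 CPM at 7 days and 148, 158 and 143 CPM at 20 hours (adjusted p = 0.454).

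Markers of 3 other cell types were counted in the same libraries. Of the epithelial list, KRT18 rose by 1.87 ± 0.13 (2999 counts at 7 days and 655 at 20 hours, a mean of 86.0 CPM in untreated cells), KRT8 was not called (740 and 543 counts), and CDH1 (3 and 11), KRT19 (1 and 0) and EPCAM (0 in both) were too low to test. Of the endothelial list, TEK rose (25 counts at 7 days and 1 at 20 hours; too low to test with the 6 libraries alone), VWF (49 and 27) and PECAM1 (5 and 0) were not called, and CDH5 (0 and 5) was too low to test. Of 2 tested leukocyte genes, LYZ fell (13 counts at 7 days and 116 at 20 hours) and CD68 was not called (20 and 9), and PTPRC (1 and 13), CD3E (4 and 0) and ITGAM (1 and 2) were too low to test.

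Matrix-remodelling proteases and their inhibitors rose in 18 of 24 tested members and fell in 4, with a median of 1.85, or 1.59 with genes without counts at 20 hours set to the floor. PLAUR, the urokinase receptor, had 98.4, 105 and 99.5 CPM at 7 days, against 6.44, 6.68 and 8.30 CPM at 20 hours (3.82 ± 0.14). MMP1, interstitial collagenase, had 2554, 2489 and 2441 CPM at 7 days and 469, 536 and 472 CPM at 20 hours (2.34 ± 0.11), with 3519 CPM in untreated cells. CTSK, a lysosomal collagenase, fell by 2.82 ± 0.11 on the log2 scale. PLAU, the urokinase gene, rested on 7 counts and lost its call in 8 of 12 alternative fits, including 5 of the 6 that left out 1 library, all but the one without 7 days replicate 1.

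Integrin and laminin genes rose in 17 of 28 members and fell in 6 (median 0.61). ITGA11, a collagen receptor chain, had 52.6, 50.4 and 46.3 CPM at 7 days and 0.335, 0.302 and 0.672 CPM at 20 hours (6.80 ± 0.17), and ITGA3, a laminin receptor chain, rose by 3.76 ± 0.07. ITGB3, a chain of the vitronectin receptor, changed by -0.88 ± 0.10. Contractile cytoskeleton genes rose in 16 of 24 and fell in 4 (median 1.38): TPM1, tropomyosin 1, had 756, 762 and 801 CPM at 7 days and 29.9, 30.5 and 28.2 CPM at 20 hours (4.71 ± 0.08), while MYH10, nonmuscle myosin IIB, changed by -2.20 ± 0.15.

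Genes tied to the neural crest and to undifferentiated melanoma rose in 14 of 20 tested members and fell in 5, with a median of 1.22. SLITRK6, a membrane protein, had 75.3, 75.1 and 81.3 CPM at 7 days and 0.418, 0.474 and 0.791 CPM at 20 hours (7.08 ± 0.21). CD36, a fatty acid carrier, had 166, 158 and 166 CPM at 7 days and 4.22, 5.69 and 4.78 CPM at 20 hours (5.06 ± 0.16). AQP1, a water channel, rose by 3.62 ± 0.30. The 5 that fell included genes of myelinating Schwann cells, which are also of neural crest origin.

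MBP, myelin basic protein, had 38.4, 38.4 and 37.8 CPM at 7 days, against 2159, 2179 and 2251 CPM at 20 hours (-5.84 ± 0.10, adjusted p = 1.17e-28). PMP22, another myelin protein, rose by 1.60 ± 0.08. Over the 5 Schwann cell markers, 4 fell and 1 rose. Untreated cells had 348 CPM of MBP, between the 2 drug groups.

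Transcription factors of epithelial to mesenchymal transition and cadherins rose in 12 of 14 tested members (median 2.19). CDH2, N-cadherin, had 579, 539 and 555 CPM at 7 days and 135, 146 and 139 CPM at 20 hours (2.0 ± 0.07), and CDH6 rose by 4.89 ± 0.18. ZEB1 had 8.52, 6.87 and 8.10 CPM at 7 days and 1.34, 1.85 and 1.62 CPM at 20 hours (2.28 ± 0.19), whereas its relative ZEB2, which is known to go with the differentiated state, had 342, 319 and 354 CPM at 7 days and 480, 534 and 547 CPM at 20 hours (-0.62 ± 0.12). TWIST1 rose by 1.23 ± 0.13. SNAI2 rose by 0.27 ± 0.08 only, with no overlap between the groups.

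Some cytokine and chemokine genes that were nearly silent at 20 hours were detected at 7 days. The list as a whole was not silent at 20 hours: its summed level was 274 to 294 CPM, against 356 to 385.5 CPM at 7 days. Of 19 tested members, 12 rose, 2 fell and 5 were not called, with a median of 3.72, or 3.22 with genes without counts at the floor. CXCL8, the neutrophil chemokine, had 43.8, 42.1 and 43.6 CPM at 7 days, against 0.335, 0.0862 and 0.119 CPM at 20 hours (7.88 ± 0.23, adjusted p = 4.19e-23). Untreated cells averaged 9.60 CPM of CXCL8, so it was below its baseline at 20 hours and above it at 7 days. IL6 had 204 counts at 7 days and none at 20 hours, at least 54.1-fold higher, and IL11, of the same family, had 1241 counts against 3 (ratio 329, counting interval 112 to 1599). LIF had 35.3, 36.2 and 36.3 CPM at 7 days and 2.84, 2.50 and 2.85 CPM at 20 hours (3.72 ± 0.09), but 136 CPM in untreated cells.

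Feedback genes of NF-kappa-B were less uniform, with 9 of 17 higher (52.9%) and 4 lower (23.5%), and a median of 0.47. Over all tested genes, the shares were 28.6% higher and 29.1% lower. Without 7 days replicate 3, 2 list members were lower. BIRC3, an inhibitor of apoptosis, rose by 4.20 ± 0.25 and TRAF1 by 3.91 ± 0.13. NFKBIA, the inhibitor that shuts the pathway off, was not called, SOD2 changed by -1.42 ± 0.07 and ICAM1, an adhesion molecule, by -0.97 ± 0.06.

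MHC class II genes fell without exception among the 7 tested of 11 listed, with a median of -2.95. CD74, the invariant chain, had 6.09, 5.97 and 5.76 CPM at 7 days, against 51.8, 49.8 and 48.6 CPM at 20 hours (-3.08 ± 0.14, adjusted p = 8.44e-18). HLA-DRA had 1.27, 1.70 and 1.42 CPM at 7 days and 11.4, 11.2 and 11.3 CPM at 20 hours (-2.93 ± 0.21). CIITA, the coactivator that switches the class on, changed by -2.21 ± 0.18, from a low level. MHC class I presentation genes were mixed, with 6 of 15 higher (40%), 4 lower (26.7%) and a median of 0.15. These shares lay near those over all tested genes, 28.6% higher and 29.1% lower. Of those 4 falls, 2 remained with DESeq2, with RLE factors, without mitochondrial genes, and without 7 days replicate 1 or 3 or 20 hours replicate 1 or 2. PSMB9, an immunoproteasome subunit, had 15.2, 16.4 and 14.7 CPM at 7 days and 2.05, 1.46 and 1.78 CPM at 20 hours (3.12 ± 0.19), and NLRC5, the class I coactivator, changed by -1.14 ± 0.16.

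Interferon-stimulated genes fell in 16 of 28 members and rose in 5, with a median of -0.58. IFIT1 changed by -1.79 ± 0.24 and IFIH1, an RNA sensor, by -1.15 ± 0.11. IRF1, a factor of the same response, stood apart, with 33.1, 33.9 and 33.2 CPM at 7 days and 4.31, 3.66 and 4.31 CPM at 20 hours (3.03 ± 0.15, adjusted p = 1.92e-17).

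Stress response genes rose. In the list of NRF2 targets and aldo-keto reductases, 19 of 20 members rose and GCLC fell, with a median of 1.87. HMOX1, heme oxygenase 1, had 163, 185 and 165 CPM at 7 days, against 23.1, 18.8 and 18.5 CPM at 20 hours (3.09 ± 0.12), and 5.91 CPM in untreated cells. AKR1C1, an aldo-keto reductase, had 24.3, 24.3 and 21.0 CPM at 7 days and 0.209, 0.129 and 0.198 CPM at 20 hours (6.98 ± 0.29). The AKR1C genes are close copies, so reads may be split among them. GCLM, the regulatory subunit of glutathione synthesis, rose by 3.09 ± 0.09, whereas GCLC, the catalytic subunit, changed by -0.44 ± 0.08.

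Targets of ATF4, the factor of the integrated stress response, rose in 21 of 25 members and fell in 1 (median 1.24). ASNS, asparagine synthetase, had 395, 416 and 397 CPM at 7 days and 72.7, 69.8 and 62.7 CPM at 20 hours (2.56 ± 0.09). SLC7A11, the cystine carrier, had 590, 523 and 559 CPM at 7 days and 40.9, 44.5 and 44.5 CPM at 20 hours (3.69 ± 0.15), and TRIB3, a pseudokinase, rose by 3.11 ± 0.12. SLC7A5, a carrier of large neutral amino acids, was the 1 that fell (-0.65 ± 0.07).

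Among small heat shock proteins and chaperones, 14 of 18 rose and 2 fell (median 0.76). CRYAB, alpha-B-crystallin, had 2634, 2836 and 2549 CPM at 7 days, against 8.74, 8.96 and 7.55 CPM at 20 hours (8.31 ± 0.16, adjusted p = 2.71e-27), and 2.03 CPM in untreated cells. HSPA1A, an inducible HSP70 with a near-identical copy in HSPA1B, rose by 1.91 ± 0.09. HSF4, a heat shock factor, fell by 2.19 ± 0.12 on the log2 scale.

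Of 28 glycolysis and hypoxia genes, 14 rose, 7 fell and 7 were not called (median 0.21). VEGFA, a hypoxia target, had 212, 209 and 209 CPM at 7 days and 19.0, 18.4 and 20.1 CPM at 20 hours (3.45 ± 0.07), and SLC2A1, the glucose carrier, rose by 2.66 ± 0.08. Enzymes of the pathway went both ways, with LDHA, lactate dehydrogenase A, at 0.28 ± 0.07 and PFKM, the muscle phosphofructokinase, at -1.53 ± 0.07. Cholesterol synthesis genes fell in 15 of 24 members, with none higher and a median of -0.51. PMVK, a kinase of the mevalonate pathway, was called higher without the count filter, with the 6 libraries alone and without 7 days replicate 1, at log2 changes of 0.28, 0.23 and 0.36. SREBF2, the list's main activator, had 149, 148 and 138 CPM at 7 days and 380, 351 and 412 CPM at 20 hours (-1.39 ± 0.07). Lysosome and autophagy genes rose in 10 and fell in 13 of 26 members (median -0.07), with CTSA at -1.69 ± 0.07 and SQSTM1, the autophagy receptor p62, at 1.32 ± 0.08.

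Levels in the later continuous weeks show whether the 7 day values were kept. MITF averaged 11.4 ± 0.23 CPM at 7 days (SD, n = 3), 13.7 ± 1.35 CPM at 14 days, 25.4 ± 4.05 CPM at 21 days and 25.9 ± 2.04 CPM at 28 days (n = 2). PMEL, by contrast, was lower still at 14 days, at 2.83 ± 0.49 CPM, and averaged 15.0 ± 2.0 CPM at 28 days. DCT stood at 2.92 ± 0.17 CPM at 14 days but at 46.4 ± 10.5 CPM at 21 days and 69.6 ± 0.94 CPM at 28 days, above its untreated mean of 57.1 CPM. The pigment genes thus did not keep a common course after day 7.

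Among genes that had risen, AXL averaged 57.9 ± 1.37 CPM at 7 days, 118 ± 12.2 CPM at 14 days and 29.2 ± 0.86 CPM at 28 days. FOSL1 averaged 331 ± 3.61 CPM at 7 days, 436 ± 20.7 CPM at 14 days and 155 ± 10.2 CPM at 28 days. PDGFB was highest at 7 days, with 7.39 ± 0.44 CPM, and averaged 0.364 ± 0.096 CPM at 28 days. COL1A1 kept a single direction, with 224 ± 4.56 CPM at 7 days, 1054 ± 23.6 CPM at 14 days, 1606 ± 36.8 CPM at 21 days and 2179 ± 171 CPM at 28 days. EGR1 did too, with 9.23 ± 0.56 CPM at 7 days, 48.4 ± 13.1 CPM at 14 days and 535 ± 69.9 CPM at 28 days. These later means were not tested against day 7 here.

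**Figure D5:**
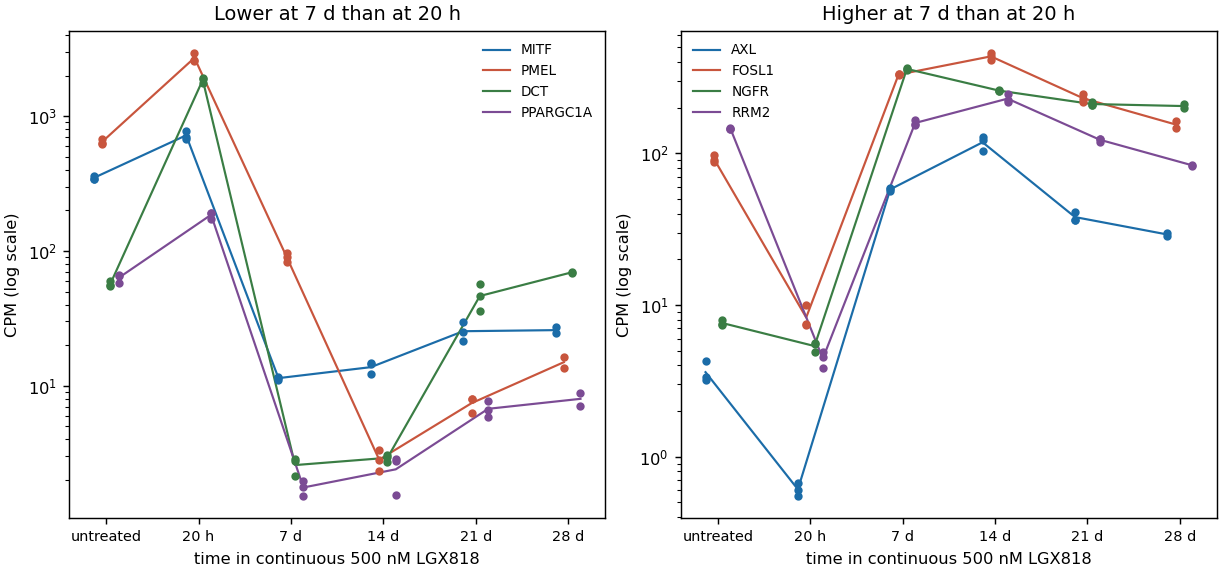
CPM on a log scale (y axis) in untreated BRAF-V600E cells and after 20 hours, 7, 14, 21 and 28 days of continuous LGX818 (x axis, evenly spaced and not to scale), 1 point a library and lines through the group means (3 libraries, 2 at 28 days), for 4 genes lower and 4 genes higher at 7 days than at 20 hours. DCT is back at 69.6 CPM at 28 days while MITF stays at 25.9 CPM, and AXL peaks at 118 CPM at 14 days.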

How the data were processed

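Polyadenylated RNA libraries of WM239A cells were analysed from the table of raw counts per gene that the authors deposited, in whole numbers, for 60675 genes. The submitters' processing notes name Trimmomatic 0.32, HISAT2 2.0.3, SAMtools 0.1.18, HTSeq 0.6.1 and the GRCh38 genome. Per the labels' protocols, cells were frozen when sampled and all RNA was purified together at the end. The annotation release and strand setting are not given in the sources used here, so counts of overlapping and antisense genes are uncertain. Columns were matched to samples by title. The intermittent columns of week 3 are named off drug in the table but on drug in the labels and entered only the shared fit.

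The test was edgeR's quasi-likelihood F test (version 4.0.16, R 4.3.3) after filterByExpr and TMM scaling. It kept 20494 genes, which held 99.95% or more of each library's counts. A single model with 10 group terms took in the 29 libraries, and p-values were adjusted by Benjamini-Hochberg with a threshold of 0.05. A standard error is the size of the log2 change divided by the root of F. A group with no counts was given a floor of 3 counts, and ratios of genes with 1 to 3 counts have exact 95% counting intervals. Positions are from GENCODE 29 and promoters from RefSeq. The 43 gene lists, the members and the rule for named genes were chosen with earlier results of these data known. That rule names the 10 largest rises and falls with at least 5 CPM and groups that do not overlap (clone names, bare identifiers, pseudogenes and antisense genes left out), 14 fixed genes, and up to 4 called members of each list in each direction with any member whose role the account turns on. Lists are described by counts and medians, with no test of the list. Some genes are in several lists, such as FOSL1 (ERK output, AP-1), CTSK (proteases, lysosome) and COL1A1 (matrix, fibroblast markers). They are to be read against all tested genes, of which 28.6% rose and 29.1% fell, with a median of -0.02. The main fit did not treat replicate numbers as pairs. Deviations of same-numbered libraries correlated at -0.02, -0.05 and -0.00, which cannot exclude a culture or batch shared by replicate number. The alternatives run were DESeq2 1.42.0, RLE scaling, all genes unfiltered, only the 6 compared libraries, a replicate block, no mitochondrial genes, and each of the 6 libraries left out in turn. Figures were drawn with matplotlib 3.10.9. Some gene values are not reported here.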

Additional observations from a re-analysis of the deposited data

How the results depend on the processing

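The counts of genes that rose and fell stayed within 1.5 times of 5856 and 5974 in every alternative: 6022 and 5744 with DESeq2, 6008 and 5773 with RLE factors, 6213 and 5384 without the count filter, 5888 and 5971 with the 6 libraries alone and 6029 and 5725 without mitochondrial genes. With the replicate number as a block they were 5812 and 5917. Leaving out 1 library at a time gave 5412 to 5870 rises and 5133 to 5548 falls, and 2651 to 2842 rises and 2505 to 2707 falls of at least 2-fold. The share of calls that were rises was 49.5% and lay between 49.5% and 53.6% over the alternatives. The share of counts in the 10 largest genes differed by -3.004 percentage points, 7 days minus 20 hours, and by 7.12 points with mitochondrial genes left out, where FN1 is the largest. Of 9793 values of 821 named genes under alternatives, 9537 kept their side of the threshold, 200 lost their call and 56 gained a call. These changes fell on 80 genes. No value called in the main fit or in the alternative changed direction. Changes of direction among values called in neither were not counted. Of 1032 counts of list members, 26 moved by more than 1.5 times.

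Limits apply throughout: 3 libraries a group of unknown origin, no late untreated cells, and depths of 22.9 to 35.8 mega-counts. Genes with no or few counts in a group are given as bounds or ratios, since their fitted change depends on the prior count.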

Other observations

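Axon guidance genes were divided, with 19 of 34 tested members higher at 7 days than at 20 hours, 13 lower and a median log2 change of 0.67. The neuropilins, coreceptors of semaphorins and VEGF, went opposite ways: NRP1 had 123, 113 and 122 CPM at 7 days and 10.5, 11.1 and 11.1 CPM at 20 hours (3.45 ± 0.09), while NRP2 had 142, 136 and 136 CPM at 7 days, against 1119, 1104 and 1157 CPM at 20 hours (-3.03 ± 0.10, adjusted p = 3.15e-21). UNC5B, a netrin receptor, rose by 5.20 ± 0.25, and the secreted SEMA3B by 3.35 ± 0.11, whereas the membrane-bound SEMA6A changed by -1.90 ± 0.11. Potassium channel genes rose in 11 of 18 tested members and fell in 4, with a median of 2.09, or 1.16 with genes without counts at 20 hours set to the floor of 3 counts. KCND3 had 46.8, 45.2 and 44.5 CPM at 7 days and 1.38, 1.29 and 1.54 CPM at 20 hours (5.01 ± 0.18), and KCNH1 rose by 5.18 ± 0.25, so the fall of KCNJ13 was not shared by these channels.

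HOX genes, which mark body position, fell in 18 of 36 members and rose in 4 (median -0.47). HOXB3 changed by -2.24 ± 0.14 and HOXC8 rose by 1.05 ± 0.12. S100 calcium-binding proteins rose in 8 of 12 tested members and none fell (median 1.59; S100A1 fell without the count filter and with the 6 libraries alone), with S100A6 at 1.72 ± 0.14. By gene type, 34.5% of 14688 protein-coding genes rose and 31.0% fell, whereas 10.7% of 1703 antisense genes rose and 25.0% fell, and 17.7% of 1364 lincRNA genes rose and 27.9% fell. Antisense counts are uncertain without the strand setting.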
